A study of Mus musculus with 12 samples.

Results

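CC chemokine ligands are small secreted proteins that attract leukocytes through G-protein-coupled receptors of the CCR family. The 10 described here are Ccl2, Ccl3, Ccl4, Ccl5, Ccl6, Ccl7, Ccl9, Ccl17, Ccl22 and Ccl24. They were chosen by gene symbol, with earlier results of these data known. Each symbol matched 1 of the 47643 gene IDs in the files, and all 10 passed the filter on low counts, which left 14034 genes for testing. The cells were bone-marrow monocytes from mice on a C57BL/6 background, wild type (WT) or lacking the nuclear receptor gene Nr4a3 (KO). They were taken as sorted monocytes with no culture, or after 1 or 2 days of culture with GM-CSF and IL-4, the cytokine pair used to grow dendritic cells from monocytes. Each of the 6 groups had 2 libraries from independent experiments. How Nr4a3 was disrupted and how many animals stand behind a library are not given in the sources used here. By its title the study addressed the part of NR4A3 as monocytes become dendritic cells.

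The ligands serve different receptors and stages of a myeloid cell's life. Ccl2 and Ccl7 bind CCR2 and draw monocytes out of the bone marrow and into tissue. Ccl3, Ccl4 and Ccl5 attract monocytes, T cells and immature dendritic cells. Ccl6 and Ccl9 are rodent ligands of CCR1 made by myeloid cells at rest. Ccl17 and Ccl22 both bind CCR4 on T cells, and Ccl24 binds CCR3 on eosinophils. IL-4 acts through the transcription factor STAT6, and Ccl17, Ccl22 and Ccl24 are known products of myeloid cells exposed to IL-4.

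In mouse the 2 CCR4 ligands are close neighbours on chromosome 8, and their upstream sequences are shown because these genes had the highest levels per length of all 10 after 2 days of culture. In GRCm38, Ccl22 (ENSMUSG00000031779.3) spans chr8:94745590-94751699 and Ccl17 (ENSMUSG00000031780.1) spans chr8:94810453-94812036, both on the plus strand, with 58753 bases between them. The sequences below are RefSeq promoters of the GRCm38.p6 build, 5′ to 3′ on the plus strand, and capitals mark a match to the STAT6 motif.
Ccl17: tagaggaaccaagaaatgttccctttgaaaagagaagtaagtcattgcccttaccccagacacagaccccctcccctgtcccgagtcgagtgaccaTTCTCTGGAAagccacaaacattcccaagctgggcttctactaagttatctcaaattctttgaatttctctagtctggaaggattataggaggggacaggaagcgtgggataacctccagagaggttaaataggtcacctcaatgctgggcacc
Ccl22: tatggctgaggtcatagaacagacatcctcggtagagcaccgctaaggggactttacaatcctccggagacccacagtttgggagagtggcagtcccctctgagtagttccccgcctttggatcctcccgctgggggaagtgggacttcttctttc
The Ccl17 stretch is the 250 bases before its start, chr8:94810203-94810452. The Ccl22 stretch is 156 bases, chr8:94745434-94745589, ending before the GENCODE start of the gene. The STAT6 motif was searched as TTC and GAA with any 4 bases between them, a pattern that reads the same on both strands. It matched Ccl17 once, as TTCTCTGGAA, with 144 bases between the match and the start, and it matched 5.85% of 32851 promoters of the same length. Ccl22 had no match to it. The extended NR4A motif AAAGGTCA, searched on both strands, matched neither gene, and among the 5 members with an entry it matched Ccl6, as TGACCTTT, against 1.34% of promoters. The NF-kB consensus matched Ccl9, as GGAAAGCCCC, against 7.25% of promoters. A match describes letters and not binding.

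The libraries held 5905266 to 18447405 reads in genes, and levels are given as CPM (reads of a gene scaled to a fixed library total) after TMM scaling. The deleted gene was checked first. Nr4a3 stood at 1287 and 1358 CPM in the WT day 2 libraries and at 39.0 and 19.3 CPM in the KO ones. At day 1 it stood at 16.5 and 10.4 CPM in WT, and at 6.58 and 0 CPM in the libraries labelled KO. The label of KO day 1 replicate 1 could thus not be checked. Nr4a3 reads remained in both KO day 2 libraries too, at 0.0303 and 0.0142 of the WT library with the same replicate number. In KO day 1 replicate 1 that ratio was 0.398. Whether the library is labelled correctly was not tested. In monocytes all 4 libraries had less than 1 CPM, which checks nothing there. The WT monocyte replicates differed more than 2-fold in 35.8% of tested genes, against 13.7% to 24.2% in the other 5 groups. That share does not say which replicate is unusual. WT monocyte replicate 2, which had the highest share of unmapped reads of all libraries (7.91%), and KO day 1 replicate 1 were the 2 libraries treated as standing apart. The day 2 libraries came from other experiments than the monocyte and day 1 libraries, by the dates in the file names, so that for day 2 stage and experiment cannot be told apart. Xist, expressed from the inactive X of females, was at 794 to 885 CPM in both day 2 replicate 1 libraries and at 0 to 1.01 CPM in the remaining 10 libraries. The summed level of 12 dendritic cell markers rose from 265 to 311 CPM in monocytes to 23679 to 38317 CPM at day 2, and that of 12 monocyte markers went from 24798 to 54922 CPM to 1305 to 7379 CPM. In such bulk samples fewer cells of a type and less RNA per cell cannot be told apart.

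Together the 10 ligands took 0.108% to 0.251% of gene reads in monocytes and 0.969% to 2.08% at day 2. In monocytes Ccl6 and Ccl9 held 86.7% to 95.1% of those reads, and at day 2 Ccl17 and Ccl22 held 78.0% to 96.3%. The leading pair of ligands was thus the CCR1 ligands in every monocyte library and the CCR4 ligands in every day 2 library.

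**Figure D1:**
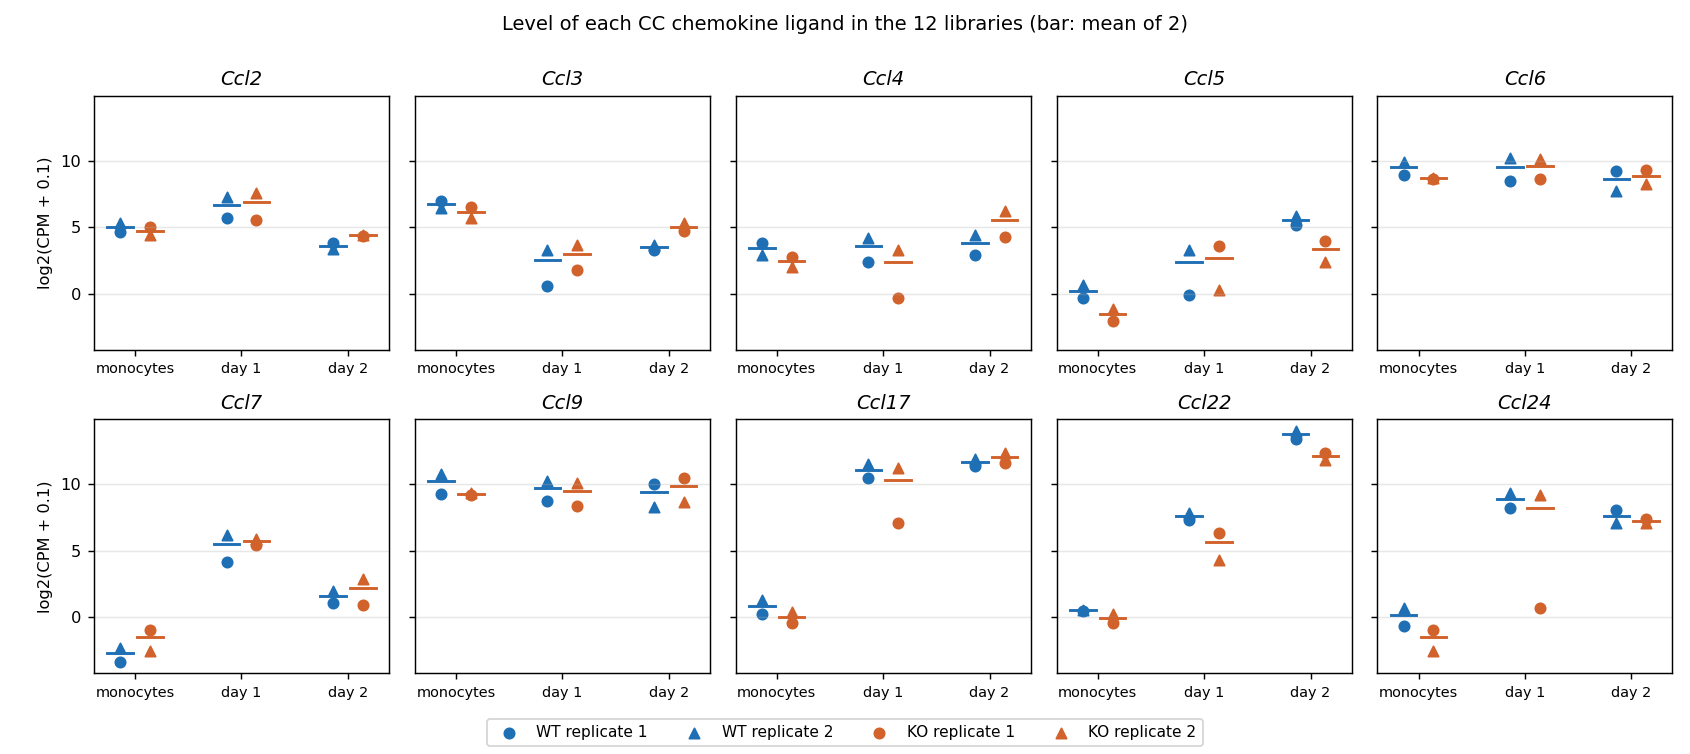
Level of each ligand as log2(CPM + 0.1) in sorted monocytes and at days 1 and 2 of culture, 1 panel a gene, with blue for WT, orange for KO, circles for replicate 1, triangles for replicate 2 and bars for the mean of the 2 libraries. Ccl17, Ccl22, Ccl24 and Ccl7 start near 0 CPM and rise in culture, Ccl3 falls at day 1, and Ccl6 and Ccl9 stay high at all 3 stages.

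Tests used edgeR's quasi-likelihood fit over all 12 libraries, with p adjusted by Benjamini-Hochberg over 14034 genes and a threshold of 0.05. From WT monocytes to day 1, 4 of the 10 ligands rose (Ccl7, Ccl17, Ccl22 and Ccl24), against 11.4% of all genes tested, and 1 fell (Ccl3), against 10.1%. From WT monocytes to day 2, 5 rose (the same 4 and Ccl5) against 12.7%, and Ccl3 fell against 9.89%. In KO cells, 5 rose from monocytes to day 1 (Ccl2, Ccl7, Ccl17, Ccl22 and Ccl24), against 7.7%, and Ccl3 fell, against 6.14%. In KO cells at day 2, 5 rose (Ccl5, Ccl7, Ccl17, Ccl22 and Ccl24), against 9.95%, and none fell, against 7.57%. Between day 1 and day 2, Ccl22 rose and Ccl2 and Ccl7 fell in WT cells, against 4.67% of genes higher and 3.51% lower. In KO cells Ccl22 was the 1 ligand that passed between the 2 days, against 1.5% of genes higher. With 1 library left out the counts ran from 4 to 6 at WT day 1, 3 to 6 at WT day 2, 3 to 7 at KO day 1 and 2 to 6 at KO day 2, and from 1 to 3 between the days in each genotype. The lowest counts came without WT monocyte replicate 1 (3 at WT day 2), without either KO monocyte library (3 and 2 at KO days 1 and 2), and without WT day 1 replicate 2 or either WT day 2 library (1 between the days). The median log2 fold change of the 10 ligands from WT monocytes was 1.97 at day 1 and 2.95 at day 2, beside 0.06 and 0.09 over all genes tested. Ccl5, Ccl7 and Ccl24 held 1 to 23 reads a monocyte group and passed the filter on low counts through cultured libraries. A rise was thus the only change open to them, and these counts and medians only describe the chosen genes.

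**Figure D2:**
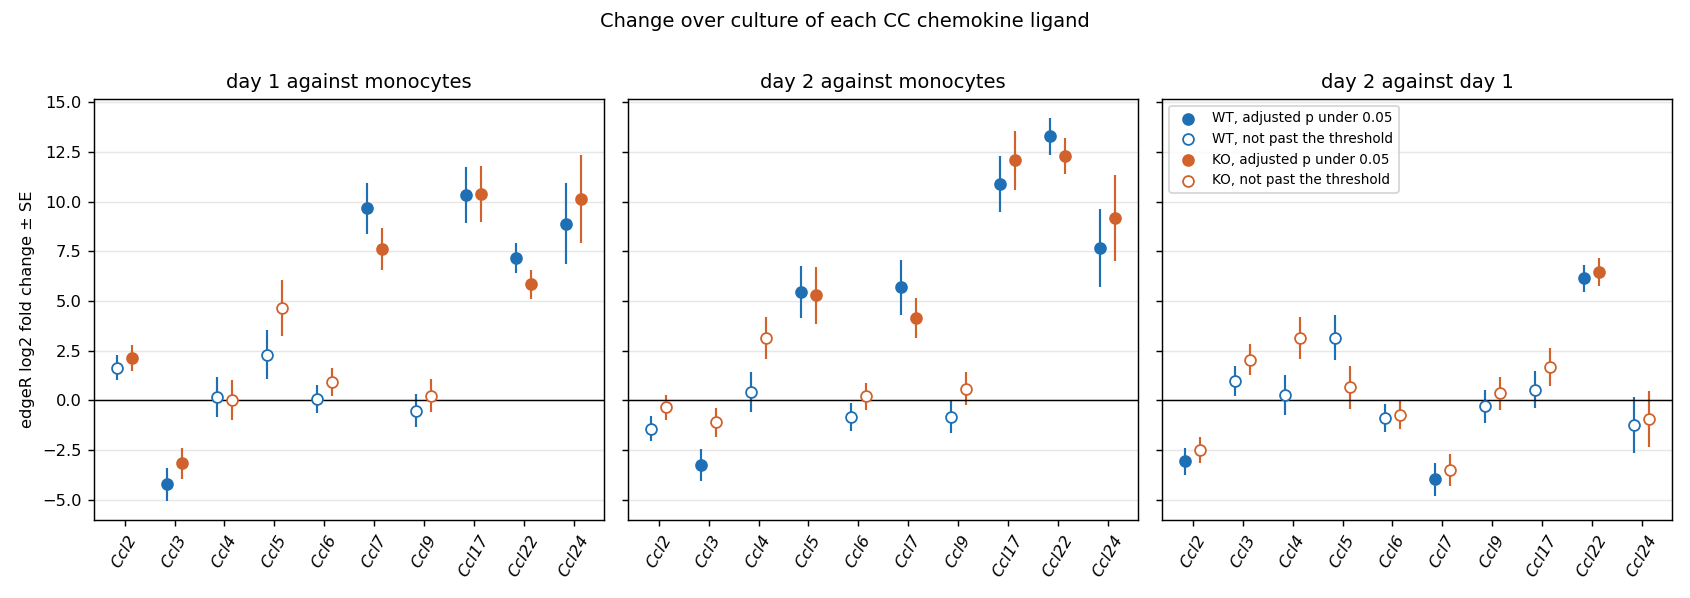
edgeR log2 fold change with its standard error for each ligand, for day 1 against monocytes, day 2 against monocytes and day 2 against day 1, in WT (blue) and KO (orange), with filled points past an adjusted p of 0.05. Ccl17, Ccl22, Ccl24 and Ccl7 are filled in both genotypes at both days against monocytes, and Ccl22 is the gene filled in both genotypes between day 1 and day 2.

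Ccl22 was nearly silent in monocytes and was the ligand with the highest CPM in WT cells at day 2. Its level was 1.30 and 1.37 CPM in WT monocytes, from 17 and 13 reads, and 0.643 and 1.06 CPM in KO monocytes. At day 1 it was 160 and 222 CPM in WT and 79.3 and 19.3 CPM in KO. Day 2 libraries had 10746 and 15972 CPM in WT and 5087 and 3532 CPM in KO. Both WT libraries were above both KO libraries at each of the 3 stages. The same held for 10.9% of all genes tested in monocytes, 9.06% at day 1 and 20.6% at day 2. The gene rose in 2 steps in WT cells, with a log2 fold change of 7.15 ± 0.74 (SE; edgeR adjusted p = 0.00028) from monocytes to day 1 and 6.13 ± 0.68 (adjusted p = 0.0013) from day 1 to day 2. In KO cells the steps were 5.83 ± 0.72 (edgeR adjusted p = 0.00086) and 6.45 ± 0.69 (adjusted p = 0.0016). The step from day 1 to day 2 in KO cells did not pass when the fit held those 2 groups alone (adjusted p = 0.082).

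Ccl17 was high by day 1. Its level was 1.07 and 2.32 CPM in WT monocytes and 0.643 and 1.21 CPM in KO monocytes. Day 1 libraries had 1411 and 2895 CPM in WT cells and 136 and 2370 CPM in KO cells, with the low value in the library labelled KO day 1 replicate 1. Day 2 libraries had 2539 and 3739 CPM in WT and 2962 and 5090 CPM in KO. The day 2 genotypes overlapped. The log2 fold change from monocytes was 10.33 ± 1.39 at day 1 (edgeR adjusted p = 0.00094) and 10.87 ± 1.42 at day 2 (adjusted p = 0.00053) in WT. In KO cells it was 10.39 ± 1.40 at day 1 (edgeR adjusted p = 0.0014) and 12.07 ± 1.48 at day 2 (adjusted p = 0.00050). The difference between day 2 and day 1 did not pass in WT (edgeR adjusted p = 0.78) or KO cells (adjusted p = 0.39). Without KO day 1 replicate 2, which leaves that arm the library with the low value, the KO difference between the days was 4.89 ± 0.75 (edgeR adjusted p = 0.014).

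The ratio of the 2 CCR4 ligands was described library by library and not tested. On the scale of CPM per kb of exon, which compares levels between genes, Ccl17 exceeded Ccl22 in all 12 libraries. At day 1 Ccl22 stood at 0.0250 and 0.0170 of Ccl17 in the WT libraries, and at 0.129 and 0.00180 in the libraries labelled KO. At day 2 the ratio was 0.936 and 0.944 in the WT libraries, close to parity, and 0.380 and 0.153 in the KO libraries. The 2 KO ratios at day 2 were both below the 2 WT ratios, while at day 1 the KO ratios lay on either side of the WT ones. In monocytes, where the ratio rests on few reads, it was 0.268 and 0.131 in WT and 0.221 and 0.195 in KO, and the genotypes overlapped.

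**Figure D3:**
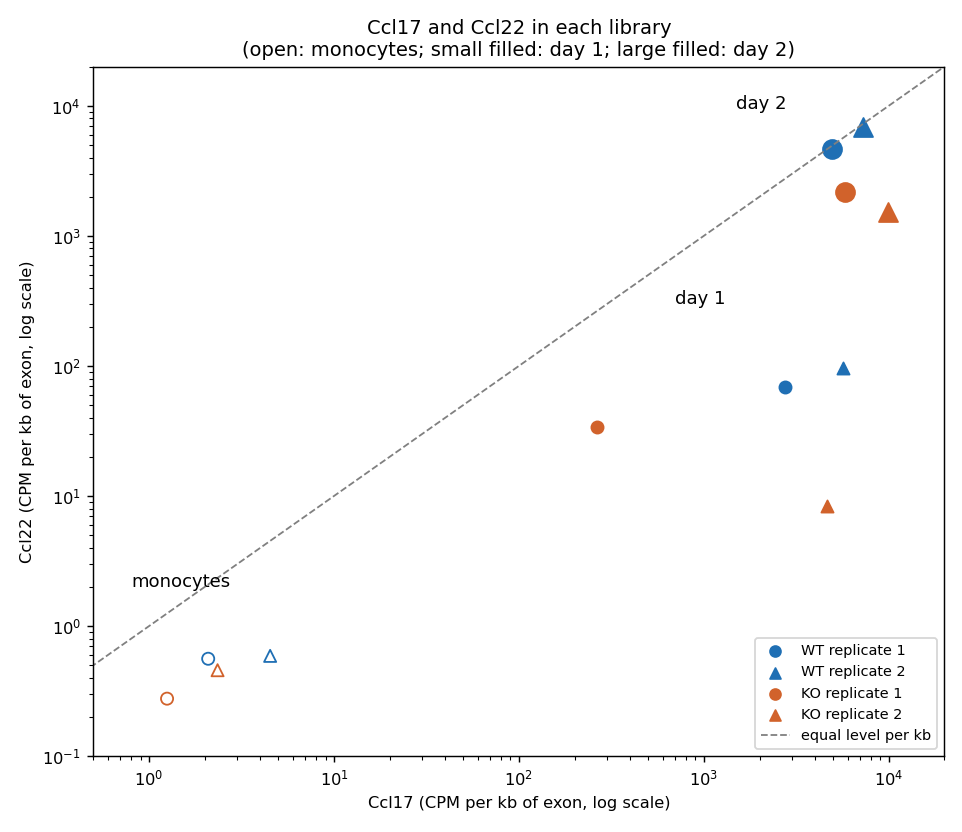
Ccl22 against Ccl17 in each library, both in CPM per kb of exon on log axes, with blue for WT, orange for KO, open symbols for monocytes, small filled symbols for day 1, large filled symbols for day 2, and a dashed line of equal level. The WT day 2 libraries lie next to the line (ratios of 0.936 and 0.944), and the KO day 2 libraries lie below it (0.380 and 0.153).

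Ccl24 (chr5:135569937-135573049, minus strand), the eosinophil attractant also called eotaxin-2, turned on at day 1. It stood at 0.536 and 1.48 CPM in WT monocytes and at 0.429 and 0.0709 CPM in KO monocytes. At day 1 it reached 288 and 639 CPM in WT, and 1.56 and 575 CPM in the libraries labelled KO. At day 2 it was 258 and 135 CPM in WT and 167 and 130 CPM in KO. The library labelled KO day 1 replicate 1 was close to the monocytes, and the other 7 cultured libraries were all above 100 CPM. Its 12 monocyte markers summed to 15367 CPM, against 6845 to 10498 CPM in the other day 1 libraries. Its 12 dendritic cell markers summed to 14026 CPM, against 11518 to 15914 CPM. Among these, Mgl2 (279 against 1280 to 2153 CPM) and Zbtb46 (5.37 against 30.1 to 35.1 CPM) were lower in it, and H2-Ab1 (2587 against 1460 to 2068 CPM) was higher. The part of this in its Ccl24 level was not tested. The log2 fold change from WT monocytes was 8.89 ± 2.04 at day 1 (edgeR adjusted p = 0.0125) and 7.65 ± 1.96 at day 2 (adjusted p = 0.018). In KO cells it was 10.11 ± 2.23 (edgeR adjusted p = 0.014) and 9.16 ± 2.17 (adjusted p = 0.016). Each of these 4 calls was lost without either monocyte library of its genotype, with adjusted p of 0.053 and 0.057 (WT day 1), 0.075 and 0.076 (WT day 2), 0.10 and 0.13 (KO day 1) and 0.095 and 0.13 (KO day 2). The KO day 1 value fell to 2.60 ± 0.94 (edgeR adjusted p = 0.17) without KO day 1 replicate 2, and the call was also lost with the experiments as a block (adjusted p = 0.057 over all groups, 0.29 with the compared groups alone) and with the compared groups alone and no block (0.14).

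Genes between and beside the 2 chromosome 8 ligands behaved in different ways. The protein-coding gene between them is Cx3cl1, which encodes the membrane-bound chemokine fractalkine. It had 0 reads in all 4 monocyte libraries, 1.63 to 5.70 CPM at day 1 and 13.4 to 23.0 CPM at day 2. From there a rise was the only change open to it. Its rise passed at day 1 (edgeR adjusted p = 0.0036 in WT, 0.0042 in KO) and at day 2 (adjusted p = 0.00068 in WT, 0.00099 in KO). The day 1 calls did not hold with the compared groups alone in WT (adjusted p = 0.055) and with unstranded counts in KO (0.063). Of the 9 neighbours within 100 kb of the span from Ccl22 to Ccl17, Rspry1, a gene upstream of Ccl22, also rose in WT cells, by 0.99 at day 1 (adjusted p = 0.019) and 1.70 at day 2 (adjusted p = 0.0012) on the log2 scale. Polr2c, a subunit of RNA polymerase II, fell by 1.14 at WT day 2 (edgeR adjusted p = 0.038). The Rspry1 day 1 call was lost without WT monocyte replicate 2 or either WT day 1 library (highest adjusted p = 0.091). The Polr2c call was lost without any of 7 libraries, WT monocyte replicate 2 and all the WT day 1, WT day 2 and KO day 2 libraries (highest adjusted p = 0.17). Pllp had 0 reads in every library, and the other 5 neighbours did not pass in WT cells at either day.

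The mean levels of the CCR2 ligands Ccl7 and Ccl2 were highest at day 1 in both genotypes, though not every step passed. Ccl7 (chr11:82045712-82047525, plus strand), also known as MCP-3, had 0 and 0.105 CPM in WT monocytes, from 1 read in all, and 0.429 and 0.0709 CPM in KO monocytes. Day 1 libraries had 17.7 and 72.6 CPM in WT and 43.6 and 59.3 CPM in KO. Day 2 libraries had 1.96 and 3.79 CPM in WT and 1.83 and 7.03 CPM in KO. Every cultured library was above every monocyte library, and every day 1 library was above every day 2 library. The summed WT day 1 reads were 1021 times the monocyte level after scaling (95% counting interval 183 to 40366; edgeR adjusted p = 0.00088), and the WT day 2 reads 63.8 times (10.9 to 2572; adjusted p = 0.015). In KO cells the log2 fold change was 7.63 ± 1.05 at day 1 (edgeR adjusted p = 0.0015) and 4.15 ± 1.00 at day 2 (adjusted p = 0.017). From day 1 to day 2 Ccl7 fell by 3.97 ± 0.84 on the log2 scale in WT cells (edgeR adjusted p = 0.020), while the KO difference was -3.48 (adjusted p = 0.056).

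The day 1 rises of Ccl7 held with each library left out, and the day 2 values did not. The WT day 2 call was lost without WT monocyte replicate 1 (adjusted p = 0.069) or WT day 2 replicate 2 (0.062), without both libraries that stand apart (0.108), and with the compared groups alone (0.058). The KO day 2 call was lost without KO monocyte replicate 1 (edgeR adjusted p = 0.052), KO monocyte replicate 2 (0.140) or KO day 2 replicate 2 (0.179). The WT fall between the days was lost without WT day 1 replicate 2 (edgeR adjusted p = 0.142), WT day 2 replicate 1 (0.136) or WT day 2 replicate 2 (0.083). With the experiments as a block the KO fall passed too, at -3.75 ± 0.63 (edgeR adjusted p = 0.0088).

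Ccl2 (chr11:82035571-82037453, plus strand), also known as MCP-1, was present in monocytes and followed the same course with smaller steps. It stood at 25.2 and 39.8 CPM in WT monocytes and 31.5 and 21.4 CPM in KO monocytes. At day 1 the WT libraries had 50.5 and 152 CPM and the KO libraries 47.2 and 185 CPM, replicate 2 being the higher in both genotypes. At day 2 the WT libraries had 14 and 10.1 CPM and the KO libraries 20.0 and 21.6 CPM. In WT cells Ccl2 fell by 3.07 ± 0.67 on the log2 scale from day 1 to day 2 (edgeR adjusted p = 0.022). That call was lost without WT day 1 replicate 2 (adjusted p = 0.145), WT day 2 replicate 1 (0.098) or WT day 2 replicate 2 (0.138). The KO difference between the days was -2.48 (edgeR adjusted p = 0.083), and -2.25 ± 0.54 with the experiments as a block over all groups (adjusted p = 0.043). The rise from monocytes to day 1 was 2.14 ± 0.64 in KO cells (edgeR adjusted p = 0.0497) and 1.64 in WT cells (adjusted p = 0.087). The KO call was lost without any 1 of the KO monocyte libraries or the day 2 libraries of either genotype (adjusted p from 0.057 to 0.25) and under RLE scaling, unstranded counts, the compared groups alone or the block over all groups (0.050 to 0.089), and without KO day 1 replicate 2 it stood at 0.84 ± 0.55 (adjusted p = 0.48). With the experiments as a block and the compared groups alone, the WT rise was 1.41 ± 0.34 (edgeR adjusted p = 0.0021) and the KO rise 1.80 ± 0.73 (adjusted p = 0.20).

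Other CC ligands outside the 10 were mostly absent. Of 11 more CC ligand genes, 4 passed the filter on low counts, and Ccl8 and Ccl12, of the same chromosome 11 family, rose in WT and KO cells at both days. Both had 0 reads in all 4 monocyte libraries and passed the filter through cultured libraries, so a rise was the only change open to them. Of all genes tested, 11.4% were higher at WT day 1 and 12.7% at WT day 2. In KO cells these shares were 7.7% and 9.95%. Ccl8 was at 3.72 and 13.1 CPM in WT and 4.85 and 5.47 CPM in KO at day 1, and at 1.96 to 4.99 CPM at day 2. Taking 3 reads over the group as the floor, Ccl8 was at least 63.3-fold higher at WT day 1 (edgeR adjusted p = 0.0026) and at least 48.3-fold higher at KO day 1 (adjusted p = 0.0045). Ccl12 was at least 47.3-fold higher at WT day 1 (edgeR adjusted p = 0.0057) and at least 40.3-fold higher at KO day 1 (adjusted p = 0.0090). The KO day 1 call of Ccl12 was lost without either KO monocyte library (highest adjusted p = 0.059). At WT day 2 Ccl12 was at least 4.14-fold higher (edgeR adjusted p = 0.047), a call that was lost without any 1 of 11 libraries (highest adjusted p = 0.18), WT day 1 replicate 1 being the exception, and at KO day 2 it was at least 15.8-fold higher (adjusted p = 0.014), which was lost without either KO monocyte library or KO day 2 replicate 2 (highest 0.080). Ccl25, at 3.83 to 9.89 CPM, and Ccl27a did not pass in any of these contrasts.

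Among the inflammatory ligands, Ccl3 (chr11:83647844-83649355, minus strand), also called MIP-1α, fell at the start of culture. It stood at 125 and 85.1 CPM in WT monocytes and 90.4 and 52.0 CPM in KO monocytes. Day 1 libraries had 1.40 and 9.87 CPM in WT and 3.38 and 12.3 CPM in KO. At day 2 it was 9.66 and 12.5 CPM in WT and 26.3 and 39.4 CPM in KO. All 8 cultured libraries were below all 4 monocyte libraries, and both KO day 2 libraries were above both WT ones. The log2 fold change from WT monocytes was -4.21 ± 0.83 at day 1 (edgeR adjusted p = 0.0061) and -3.24 ± 0.79 at day 2 (adjusted p = 0.015). In KO cells it was -3.16 ± 0.79 at day 1 (edgeR adjusted p = 0.024) and -1.11 at day 2, which did not pass (adjusted p = 0.33). The WT day 2 call was lost without WT day 2 replicate 1 (adjusted p = 0.085) or replicate 2 (0.073). The KO day 1 call was lost without KO monocyte replicate 1 (edgeR adjusted p = 0.116), KO monocyte replicate 2 (0.062) or the library labelled KO day 1 replicate 1 (0.085), without both libraries that stand apart (0.118), and with the block and the compared groups alone (0.060).

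Ccl4 (chr11:83662584-83664683, plus strand), or MIP-1β, lies beside Ccl3 and did not pass in any contrast of the fit over all groups. It stood at 13.8 and 7.28 CPM in WT monocytes and 6.71 and 3.90 CPM in KO monocytes. At day 1 it was 5.04 and 18.5 CPM in WT and 0.693 and 9.74 CPM in KO. At day 2 it was 7.48 and 21.2 CPM in WT and 19.7 and 73.5 CPM in KO, and KO day 2 replicate 2 held the highest value of the 12. DESeq2 placed the KO day 2 difference from monocytes past the threshold, at 3.18 ± 0.99 (adjusted p = 0.0082), where edgeR gave 3.14 (adjusted p = 0.069), and the KO difference between the days at 3.26 ± 0.99 (adjusted p = 0.019), where edgeR gave 3.13 (adjusted p = 0.16). Without the filter on low counts edgeR called both (adjusted p = 7.84e-09 and 2.09e-08). With the compared groups alone edgeR gave 3.15 (adjusted p = 0.029), and without either day 1 library labelled KO it gave an adjusted p of 0.027.

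Ccl5 (chr11:83525778-83530518, minus strand), or RANTES, was highest in the WT day 2 libraries. It stood at 0.690 and 1.48 CPM in WT monocytes and 0.143 and 0.355 CPM in KO monocytes. Day 1 libraries were split, with 0.826 and 9.71 CPM in WT and 11.9 and 1.15 CPM in KO, the high values lying in replicate 2 of WT and replicate 1 of KO. At day 2 it was 36.6 and 57.5 CPM in WT and 15.5 and 5.07 CPM in KO. Both WT day 2 libraries were above every other library. The log2 fold change from monocytes to day 2 was 5.46 ± 1.32 in WT (edgeR adjusted p = 0.014) and 5.29 ± 1.42 in KO (adjusted p = 0.028). The WT call was lost without WT monocyte replicate 1 (adjusted p = 0.058) or replicate 2 (0.057), and without both libraries that stand apart (0.062). The KO call was lost without KO monocyte replicate 1 (edgeR adjusted p = 0.168), KO monocyte replicate 2 (0.137) or KO day 2 replicate 1 (0.106), and with the experiments as a block (0.079). T and NK cells also make Ccl5. Their 12 markers summed to 3.07 and 8.86 CPM in WT monocytes, 4.29 and 4.40 CPM in KO monocytes, 0.520 to 2.35 CPM at day 1, 1.5 and 1.39 CPM in WT at day 2 and 4.17 and 2.21 CPM in KO at day 2, with 1 of the 12 at 0 in every library. Their part in the Ccl5 levels was not tested.

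Ccl6 and Ccl9 were the leading CC ligands of monocytes per length and stayed high throughout. Ccl6 (chr11:83587882-83593087, minus strand) stood at 492 and 949 CPM in WT monocytes and 402 and 403 CPM in KO monocytes. At day 1 it was 345 and 1154 CPM in WT and 382 and 1130 CPM in KO, and at day 2 it was 586 and 215 CPM in WT and 627 and 296 CPM in KO. Replicate 2 was the higher at day 1 and replicate 1 at day 2, in both genotypes. Ccl9 (chr11:83572919-83578636, minus strand), its neighbour, repeated this with 599 and 1738 CPM in WT monocytes and 578 and 620 CPM in KO monocytes. Its level was 414 and 1208 CPM in WT and 320 and 1086 CPM in KO at day 1, and 1028 and 299.9 CPM in WT and 1396 and 408 CPM in KO at day 2. Neither gene passed in any of the 9 contrasts. WT monocyte replicate 2 held the highest Ccl9 level of all 12 libraries. It also held the highest sum of 12 neutrophil markers, 4343 CPM beside 1152 CPM in WT monocyte replicate 1, 2108 and 1518 CPM in KO monocytes, 903 to 2160 CPM at day 1 and 522 to 1824 CPM at day 2. The part of neutrophils in the result was not tested, and none of the 12 markers was at 0 in every library.

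The spread between experiments was wide for the whole family at day 1. All 10 ligands were higher in WT day 1 replicate 2 than in replicate 1, against 51.3% of all genes tested. Of the 10, 9 differed by more than 2-fold, against 18.5%. In KO cells 8 of 10 were higher in replicate 2, against 53.4%, and 9 of 10 differed by more than 2-fold, against 24.2%. The file names of both day 1 replicate 2 libraries give a culture time of 16 h, where their labels give 1 day. The part of culture time in this spread was not tested.

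KO and WT cells were compared at each stage in the fit over all 12 libraries, which took no pairs. No ligand passed in monocytes, where 0% of all genes passed, at day 1, where 0% passed, or at day 2, where 0.0998% passed. At an unadjusted p under 0.05 the edgeR counts were 0, 1 and 1 of 10, the 1 being Ccl22 both times. The share of all genes at that level is not given here, so these counts only describe the ligands. DESeq2 called 0 ligands at each stage, against 0.0214% of genes in monocytes, 0.0214% at day 1 and 0.641% at day 2. The smallest edgeR adjusted p over the 10 ligands and 3 stages was 0.93, for Ccl22 at day 2. Without the filter on low counts, 1 passed at day 1 (Ccl22, adjusted p = 0.0034), against 0.625% of genes, and 4 passed at day 2 (Ccl3, Ccl4, Ccl5 and Ccl22, adjusted p from 0.0043 to 0.043), against 0.634%. The KO against WT log2 difference of Ccl22 was -0.64 ± 0.72 in monocytes (edgeR adjusted p = 1.00), -1.96 ± 0.57 at day 1 (adjusted p = 1) and -1.63 ± 0.56 at day 2 (adjusted p = 0.93). Of all genes tested, 20.9% were lower in KO in both monocyte pairs and 33.3% in both day 2 pairs. No such share was computed at day 1 or over all 6 pairs. Beside these shares, Ccl22 was lower in KO in 6 of 6 same-numbered pairs, the monocyte pairs resting on 9 to 17 reads a library. With each library left out in turn its day 2 difference ran from -1.90 to -1.30, with adjusted p from 0.26 to 1. Its day 1 difference ran from -3.30 without KO day 1 replicate 1 to -1.25 without KO day 1 replicate 2, and its monocyte difference from -1.03 without KO monocyte replicate 2 to -0.31 without KO monocyte replicate 1. At day 1 the difference changed sign with a library left out for each of the other 9 ligands.

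The same-numbered KO and WT libraries shared dates in the file names, and at day 2 the fit with the experiments as a block and those 4 libraries alone gave a different count. It called 5 of 10 ligands, against 12.7% of 12233 genes. Ccl2 (0.80 ± 0.19, edgeR adjusted p = 0.028), Ccl3 (1.56 ± 0.16, adjusted p = 0.00086), Ccl4 (1.63 ± 0.16, adjusted p = 0.00062) and Ccl9 (0.44 ± 0.11, adjusted p = 0.030) were higher in KO, against 6.25% of genes. Ccl22 was lower (-1.63 ± 0.31, adjusted p = 0.045), against 6.49%. The lower Ccl5 of KO cells did not pass in it (-2.35, edgeR adjusted p = 0.27). That fit has 1 residual degree of freedom a gene. With the block over all 12 libraries no ligand passed. In the fit without a block the day 2 differences were 0.78 ± 0.64 for Ccl2, 1.57 ± 0.75 for Ccl3, 1.70 ± 1.02 for Ccl4 and -2.21 ± 1.11 for Ccl5, each with an edgeR adjusted p of 1. With a library left out the Ccl4 difference ran from 0.44 without KO day 2 replicate 2 to 2.67 without WT day 2 replicate 2.

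The spread of the KO and WT libraries around each other is given as a description, since no ligand passed between them in the fit over all groups. In monocytes 8 of 10 ligands were lower in KO in both pairs, against 20.9% of all genes tested, and none was higher in both, against 23.6%. The WT library of pair 2 is WT monocyte replicate 2, which was treated as standing apart. The KO over WT ratio was 0.818 for Ccl6 and 0.966 for Ccl9 in pair 1, and 0.424 and 0.357 in pair 2. For Ccl4, Ccl5 and Ccl22 it was the lower in pair 1. Ccl17, also among the 8, rests on 36 reads in WT and 26 in KO monocytes. Both KO monocyte libraries were below both WT ones for 5 of 10 ligands, Ccl4, Ccl5, Ccl6, Ccl22 and Ccl24, against 10.9% of all genes tested, and for 3 of them, Ccl5, Ccl22 and Ccl24, these values rest on 7 to 30 reads a group. Ccl22 alone did not overlap at day 1 (lower in KO, against 9.06% of genes). At day 2 Ccl5 and Ccl22 lay lower without overlap, against 20.6% of genes, and Ccl2 and Ccl3 lay higher, against 17.6%, shares close to those of all genes. At day 2 in all, 6 ligands were higher in KO in both pairs, against 34.6% of genes, and 3 were lower in both, against 33.3%. The median log2 difference of the 10 was -0.84 in monocytes, -0.10 at day 1 and 0.40 at day 2, beside 0, 0 and 0.01 over all genes tested.

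**Figure D4:**
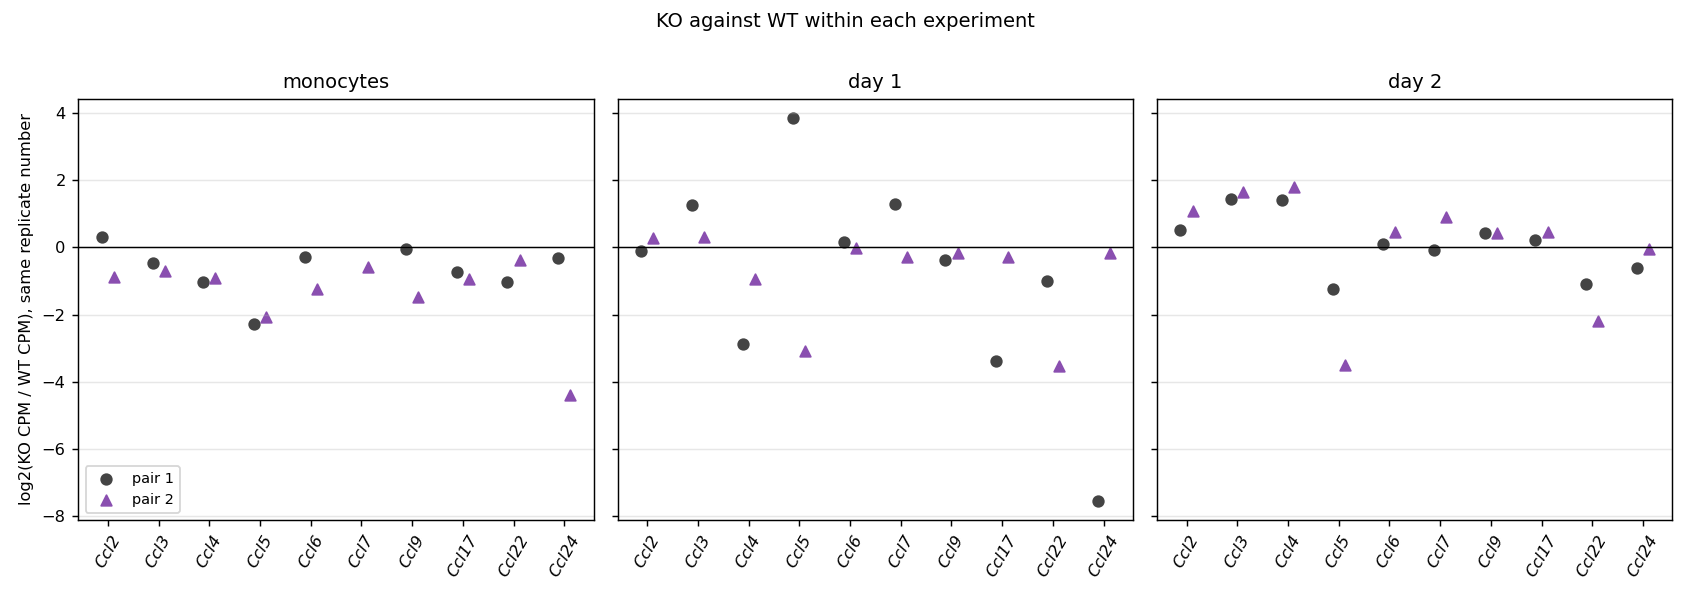
log2 of the KO over the WT level for each ligand in each same-numbered pair of libraries (grey circles for pair 1, purple triangles for pair 2), in monocytes and at days 1 and 2; Ccl7 has no pair 1 value in monocytes because its WT level was 0. Ccl22 lies below 0 in all 6 pairs, Ccl3 and Ccl4 lie above 0 in both day 2 pairs, and the day 1 pairs disagree most for Ccl5 and Ccl24. Of all genes tested, 20.9% lie below 0 in both monocyte pairs. At day 2, 33.3% lie below 0 and 34.6% above 0 in both pairs. For day 1 and for all 6 pairs together no such share was computed.

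Whether culture changed a ligand differently in the 2 genotypes was tested with 3 interaction contrasts. None of the 10 ligands passed in any of them, beside 0% of all genes for the change from monocytes to day 1, 0.0285% for that to day 2 and 0% for that between the days. None had an unadjusted edgeR p under 0.05. DESeq2 called 0 ligands, beside 0.0143%, 0.249% and 0.171% of genes, so that the count of 0 is no result about the ligands. Without the filter on low counts Ccl3 (edgeR adjusted p = 0.030) and Ccl4 (adjusted p = 0.017) passed for the change from monocytes to day 2, against 0.415% of genes, and Ccl4 (adjusted p = 0.0052) for that between the days, against 0.545%. For Ccl22 the KO minus WT change was -1.32 ± 0.92 from monocytes to day 1 and -0.99 ± 0.92 from monocytes to day 2 on the log2 scale, each with an edgeR adjusted p of 1.00. Without KO day 1 replicate 2 the day 1 Ccl24 difference between genotypes was -8.19 ± 0.99 (edgeR adjusted p = 0.016), since the library labelled KO day 1 replicate 1 was then the only one of its arm, and its spread is assumed to be that of the other groups.

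Of the CC receptor genes, 3 are described here. Ccr7, which guides mature dendritic cells to lymph nodes, reached 853 and 739 CPM in WT and 98 and 9.08 CPM in KO at day 2, from no more than 0.286 CPM in monocytes. Monocyte libraries held 0 to 4 reads of Ccr7, so a rise was the only change open to it. Its rise passed in WT (12.42 ± 2.16, edgeR adjusted p = 0.0027) and in KO (8.44 ± 1.95, adjusted p = 0.014), and the KO call was lost without either KO monocyte library or KO day 2 replicate 1 (highest adjusted p = 0.12). Between KO and WT at day 2 Ccr7 did not pass (-3.90 ± 1.37, edgeR adjusted p = 0.97). Ccr2, the receptor of Ccl2 and Ccl7, was at 1441 to 2768 CPM in monocytes and 205 to 606 CPM at day 2, and fell by 2.58 ± 0.54 on the log2 scale at WT day 2 (edgeR adjusted p = 0.0072). That call was lost without WT day 2 replicate 2 (adjusted p = 0.053) and with the compared groups alone (0.052). Ccr4, the receptor of Ccl17 and Ccl22, was at 0 reads in all monocyte libraries, so a rise was the only change open to it. Day 1 libraries had 0.578 and 1.39 CPM in WT and 0 and 0.657 CPM in KO. Day 2 libraries had 2.30 and 2.02 CPM in WT and 0.500 and 0.900 CPM in KO. Against a floor of 3 reads over the group it was at least 16.2-fold higher at WT day 2 (edgeR adjusted p = 0.044), a call lost without any 1 of 8 libraries (highest adjusted p = 0.13), namely both WT monocyte, both WT day 1, both WT day 2 and both KO day 2 libraries. It did not pass at WT day 1 (adjusted p = 0.075) or KO day 2 (0.092).

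The genes whose log2 CPM was most like each ligand's over the 12 libraries were named among 9478 genes with a mean of at least 5 CPM, as a description over libraries that share stages and experiments. Ccl22 was most like Mir155hg, the host gene of the microRNA miR-155 (Pearson r = 0.991), which stood at 85.6 and 112 CPM in WT and 26.7 and 31.7 CPM in KO at day 2, and Fnbp1l (0.987). Ccl17 was most like P2rx5, an ATP-gated channel (0.990). Ccl24 was most like Batf3, a transcription factor of dendritic cells (0.985), which stood at 10.6 CPM in the library labelled KO day 1 replicate 1 and at 125 CPM in replicate 2. Ccl7 was most like Prmt6, an arginine methyltransferase (0.981), and the Fc receptor gene Fcgr2b (0.973). Among the ligands, Ccl17 went with Ccl24 (r = 0.940) and Ccl22 (0.886), Ccl6 with Ccl9 (0.882) and Ccl5 with Ccl22 (0.880).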

How the data were processed

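Poly(A) RNA was sequenced in 12 libraries (6 groups of 2). Per the labels' protocols, a stranded kit, 20 ng of total RNA and 16 PCR cycles were used. Per the submitters' processing notes, tools were Trimmomatic 0.35 and STAR 2.5.1b, with GRCm38 (annotation release not given in the sources used here). Raw read counts, whole numbers with no normalization, were deposited by the authors. The reverse-strand column was used, and 3.63% to 5.33% of gene reads lay on the other strand. Lines naming no gene were left out (unmapped 2.65% to 7.91%, multimapping 5.29% to 8.94%, outside genes 5.24% to 11.2%, ambiguous 1.34% to 1.76% of reads). Of 47643 IDs, 47224 matched GENCODE M21, which gave symbols, coordinates and exon lengths. RefSeq promoters were held for 5 of the 10 members.

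Testing was by edgeR 4.0.16 under R 4.3.3 (TMM, filterByExpr, robust quasi-likelihood, 1 mean per group, 6 residual degrees of freedom, 14034 genes, two-sided, Benjamini-Hochberg, threshold 0.05) and checked on simulated data. SE is the log2 fold change over the root of F. Log2 CPM used a prior count of 2; 0 reads were read as up to 3, and intervals cover counting error only. Alternatives were RLE scaling, no filter, DESeq2 1.42.0, unstranded counts, the compared groups alone, each library left out, both libraries that stand apart left out, and the experiments as a block. Same-numbered KO and WT libraries share dates in their file names, and their deviations from group means correlated (r = 0.236 in monocytes, 0.194 at day 1, 0.657 at day 2). The numbers were therefore taken as pairs in the block fits and in the descriptions by pair. The main fit and DESeq2 took no pairs.

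The members and the gene lists were chosen with earlier results of these data known. Named genes are all 10 members, Nr4a3, list members by adjusted p or level, neighbours within 100 kb and the genes of most similar pattern. P-values of the main fit rest on the spread within groups of 2 libraries, estimated over all 6 groups together. A contrast thus also carries the spread of groups that it does not compare. In the list of CC receptors, 1 gene and the counts over that list are not reported here.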

Additional observations from a re-analysis of the deposited data

How the results depend on the processing

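Over 12 contrasts, RLE scaling and unstranded counts kept the count of ligands called within 1.5 times. Without the filter on low counts the count was 1 for KO against WT at day 1 and 4 at day 2 (0 with the filter), 5 for WT day 2 against day 1 (3), 6 for KO day 2 against day 1 (1), and 2 and 1 for the KO minus WT changes from monocytes and from day 1 to day 2 (0). With the replicate block and the compared groups alone it was 5 for KO against WT at day 2 (0), and 3 for KO day 1 against monocytes (6); with the replicate block over all groups it was 3 for KO day 2 against day 1 (1). That last contrast gave 5 with DESeq2, 2 without both libraries that stand apart and 0 with the compared groups alone. For contrasts between stages, the shares of all genes under these settings and with a library left out are not given here. Those counts thus only describe the ligands and do not tell whether a setting called more genes as a whole. The block was not run within the compared groups for day 2 against another stage of a genotype, which share no experiment, and it changed no other member count by more than 1.5 times. With 1 library left out in turn, the count ran from 0 to 1 for KO against WT at day 1 (Ccl24, without KO day 1 replicate 2), 4 to 6 and 3 to 6 for WT days 1 and 2 against monocytes, 3 to 7 and 2 to 6 for KO days 1 and 2 against monocytes, 1 to 3 for day 2 against day 1 in each genotype, and 0 to 1 for the KO minus WT change between the days. For KO against WT at day 1, 9 log2 differences changed sign with a library left out, Ccl22 being the exception, with ranges as wide as -2.19 to 2.95 for Ccl5, -0.72 to 2.49 for Ccl3, -3.97 to 0.14 for Ccl17 and -8.19 to 0.31 for Ccl24. At day 2, 5 did: Ccl6 ran from -0.40 to 1.09, Ccl7 from -0.65 to 1.32, Ccl9 from -0.67 to 1.57, Ccl17 from -0.10 to 0.72 and Ccl24 from -0.78 to 0.13. Over all genes, KO against WT at day 2 gave 14 calls, 142 without the filter, 35 with the block over all groups, 1558 with the block and the compared groups alone, 3 with those groups alone, 90 with DESeq2, 44 without both libraries that stand apart, and 1 to 26 with a library left out. The cause was not tested. Depth limits Ccl5, Ccl7, Ccl17, Ccl22 and Ccl24 in monocytes, where each group held 1 to 36 reads.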

Other observations

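Of 16 genes known to regulate chemokine ligand transcription or messenger stability, 4 rose and 3 fell from WT monocytes to day 1, beside 11.4% and 10.1% of all genes tested, and 6 rose and 3 fell to day 2, beside 12.7% and 9.89%. In KO cells 2 rose and 3 fell at day 1, beside 7.7% and 6.14%, and 5 rose and 4 fell at day 2, beside 9.95% and 7.57%. Irf4, a transcription factor induced by IL-4, rose from 50.04 and 34.2 CPM in WT monocytes to 760 and 552 CPM at day 1 (log2 fold change 3.96 ± 0.55, edgeR adjusted p = 0.0010) and was at 559 and 760 CPM at day 2. The NF-kB subunit genes Relb (3.56 ± 0.42, adjusted p = 0.00033) and Rel (2.92 ± 0.32, adjusted p = 0.00022) rose by WT day 2. Zfp36, whose product destabilises messenger RNAs of many cytokines and chemokines, fell by 3.18 ± 0.52 on the log2 scale at WT day 1 (edgeR adjusted p = 0.0023). These 4 results held with each library left out. With 1 library left out, 4 to 8 of the 16 passed at WT day 1, 7 to 10 at WT day 2, 3 to 5 at KO day 1 and 4 to 10 at KO day 2. None of the 16 passed between KO and WT at any stage, where 0%, 0% and 0.0998% of all genes passed. By edgeR 0, 0 and 3 of them had an unadjusted p under 0.05. The share of all genes at that level is not given here, so these counts only describe the 16.

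Of 25 genes that carry chemokine receptor signals, 1 rose and 6 fell from WT monocytes to day 1, and 6 rose and 8 fell to day 2. In KO cells none rose and 3 fell at day 1, and 2 rose and 7 fell at day 2. The shares of all genes are those given above (11.4% higher and 10.1% lower at WT day 1, 12.7% and 9.89% at WT day 2, 7.7% and 6.14% at KO day 1, 9.95% and 7.57% at KO day 2). With 1 library left out 2 to 9 and 8 to 16 passed in WT cells, and 2 to 7 and 5 to 13 in KO cells. Rgs2, a regulator that shortens G-protein signals, fell by 5.26 ± 0.62 on the log2 scale at WT day 1 (edgeR adjusted p = 0.00050), and Grk6, a kinase that desensitises receptors, fell by 1.82 ± 0.29 (adjusted p = 0.0022). Both calls held with each library left out.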
